A study of Homo sapiens with 12 samples.

Results

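The cells described here were HEK293T cells that received an NRF3 transgene, set against HEK293T cells that received the empty vector. The libraries were chosen by their labels, 3 with NRF3 and 3 with empty vector, which is 6 of the 12 libraries of the series, and every gene in the count table was kept. HEK293T is a human embryonic kidney line. All cells were transfected with FuGENE, a lipid reagent, and harvested after 24 h, so the control cells had also been through a transfection with plasmid. The NRF3 transgene encoded a FLAG-tagged, codon-optimized protein from which the N-terminal stretch that anchors NRF3 in the endoplasmic reticulum (ER) had been removed, and expression was transient in a single cell line. The NRF1 transgene was truncated and codon-optimized in the same way, and the NRF2 transgene carried a substitution of threonine by aspartate in the region that KEAP1 binds. The 3 NRF1 and 3 NRF2 libraries enter below for comparison with NRF3, and they share 1 fit with the other 6 libraries. The labels describe the libraries of a condition as independent experiments. The p-values of the main fit rest on the spread between such libraries, pooled over the 4 conditions.

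NRF3 is the product of NFE2L3 and belongs with NRF1 and NRF2 to the Cap'n'collar (CNC) family of basic leucine zipper factors. These factors pair with small MAF proteins and bind antioxidant response elements (AREs) near genes for glutathione synthesis, heme breakdown, quinone reduction and, for NRF1, the proteasome. Native NRF3 is held in the ER membrane and is released by proteolytic cleavage, and in human tissues its mRNA is most abundant in placenta.

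The libraries held 13573480, 13583327 and 13595509 counts with empty vector and 13569132, 13772323 and 13452539 with NRF3. Of 38019 genes listed, 15135 had enough counts to be tested. Levels are given as the normalised read count, in CPM (counts scaled to a common library size), and fold changes as log2 of NRF3 over empty vector with a 95% interval. A gene was called when its p, from the quasi-likelihood model of edgeR and with Benjamini-Hochberg (BH) adjustment across the tested genes, was under 0.05. Of 13 genes expected in HEK293T cells, 12 were detected, with a summed level of 1254 to 1271 CPM with empty vector and 1165 to 1293 CPM with NRF3, while KRT19 was at 0. Markers of blood and endothelium summed to 2.13 to 4.05 CPM and 1.26 to 1.33 CPM, with 3 of the 11 at 0, HBG1 and CDH5 among them. Markers of liver, kidney tubule and fibroblast summed to 9.42 to 12.1 CPM and 7.95 to 12.3 CPM, with 5 of the 15 at 0.

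Only 4 genes passed the test with NRF3. HMOX1, which encodes heme oxygenase and breaks down heme, rose 5.54-fold. HSPA6, a strictly inducible member of the HSP70 chaperones, rose 7.90-fold. GCLM, the regulatory partner of GCLC in the first step of glutathione synthesis, rose 1.51-fold. GH2, a placental growth hormone gene, was at 0 in all 3 NRF3 libraries. The 3 higher genes were 0.0198% of all genes tested, the 1 lower gene was 0.00661%, and together they were 0.0264%, against 1.75% of genes with NRF1 and 10.5% with NRF2 over the same controls. At an unadjusted p under 0.05 there were 259 genes higher (1.71%) and 364 lower (2.41%), in all 4.12%. The NRF3 libraries lay wholly above the empty vector libraries for 598 genes (3.95%) and wholly below for 702 (4.64%), in all 8.59%. With 3 libraries against 3, groups can separate in this way without any effect. For an uncalled gene named below, a lack of overlap thus carries little weight on its own. DESeq2 on the same counts called 5 genes higher and 3 lower (0.0529% of all genes tested), adding DNAJB1 and UNKL above and DDB2 and H1F0 below. In the gene lists that follow, DESeq2 thus added DNAJB1 to the heat shock genes, DDB2 to the p53 targets and H1F0 to the genes listed by the study, and no other member of any list.

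Promoter stretches of HSPA6, GCLM, UNKL and DNAJB1 are shown because they hold the letters that CNC factors and heat shock factors are known to bind. The sequences are from RefSeq on GRCh38.p14, read 5′ to 3′ on the strand of the gene and upstream of its start. Capitals mark matches to the core of the ARE (TGACNNNGC) or to a heat shock element (GAANNTTC or TTCNNGAA), both strands searched, and in HSPA6 the last run joins a TTCNNGAA and a GAANNTTC that overlap.
HSPA6, chr1:161524350-161524489, plus strand: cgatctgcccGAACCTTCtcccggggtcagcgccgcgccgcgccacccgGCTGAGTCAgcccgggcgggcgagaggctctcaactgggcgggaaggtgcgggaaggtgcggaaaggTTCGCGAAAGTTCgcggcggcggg
GCLM, chr1:93909431-93909530, minus strand: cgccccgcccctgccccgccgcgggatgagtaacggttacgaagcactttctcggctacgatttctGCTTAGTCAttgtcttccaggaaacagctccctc
UNKL, chr16:1379703-1379782, minus strand: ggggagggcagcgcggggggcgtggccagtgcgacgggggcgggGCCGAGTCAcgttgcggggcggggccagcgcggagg
DNAJB1, chr19:14518428-14518507, minus strand: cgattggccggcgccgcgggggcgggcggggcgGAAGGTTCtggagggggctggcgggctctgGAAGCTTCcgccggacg
The ARE core stands 141 bases before the start of HSPA6, 34 before that of GCLM and 86 before that of UNKL, on the opposite strand in each. Heat shock elements stand 180, 74 and 69 bases before the start of HSPA6, and 77 and 47 before 1 of the 3 starts listed for DNAJB1. Over the same 250 upstream bases, 10.9% of 35116 RefSeq promoters held an ARE core and 11.6% held a heat shock element of either form. In the same search GCLC, NQO1 and HSPH1, none of them called, had no match within the 250 bases. Elements farther from the start were outside the search, and the study itself used a reporter with an ARE taken from NQO1. HSPA1A and HSPA1B, also not called, had a heat shock element 106 and 105 bases before the start. HMOX1 is not shown. These matches are descriptions of letters and not of binding.

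HMOX1 had the smallest p of all genes tested. Its level was 57.7, 65.3 and 63.0 CPM with empty vector and 351, 378 and 302 CPM with NRF3. The lowest NRF3 library was thus far above the highest empty vector library. The log2 fold change was 2.47 (interval 2.25 to 2.69, edgeR, BH-adjusted p = 8.08e-10). HMOX1 was nonetheless lower with NRF3 than with NRF1 by a direct test in the same fit, with a log2 difference of -0.70 ± 0.10 (SE, adjusted p = 0.00748). Against NRF2 the log2 difference was -2.02 ± 0.10 (SE, adjusted p = 7.81e-10).

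HSPA6 was close to absent in control cells. Its level was 0.661, 0.952 and 0.295 CPM with empty vector and 5.14, 5.60 and 4.54 CPM with NRF3. The groups did not overlap, and the log2 fold change was 2.98 (interval 2.43 to 3.53, adjusted p = 1.73e-05). Here NRF3 stood above both other transgenes. HSPA6 was higher with NRF3 than with NRF1 by a log2 difference of 2.66 ± 0.25 (SE, adjusted p = 8.67e-05) and higher than with NRF2 by 1.51 ± 0.21 (SE, adjusted p = 0.000363). Over empty vector it was also called higher with NRF2 (log2 fold change 1.47, edgeR, adjusted p = 0.00607). HSPA7, a nearly identical neighbour that can share its reads, was not analysed here.

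GCLM differed by far less. Its level was 38.0, 33.0 and 40.1 CPM with empty vector and 55.1, 54.6 and 57.8 CPM with NRF3. The groups did not overlap, and the log2 fold change was 0.59 (interval 0.41 to 0.78, adjusted p = 0.0163). GCLM was lower with NRF3 than with NRF2 by a log2 difference of -2.23 ± 0.09 (SE, adjusted p = 2.85e-11), and the difference from NRF1 was -0.36 ± 0.09 (SE, adjusted p = 0.0926). The latter passed without NRF3 library 2 (-0.35, adjusted p = 0.0283) and after correction for transcript length and GC content (-0.41, adjusted p = 0.0135). This call was the least stable of those above zero: GCLM did not pass without empty vector library 1 (adjusted p = 0.120), without empty vector library 2 (0.217) or without NRF3 library 1 (0.0889), nor in a fit of the 6 libraries alone (0.259). Its log2 fold change stayed between 0.51 and 0.65 when each library was left out.

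**Figure D1:**
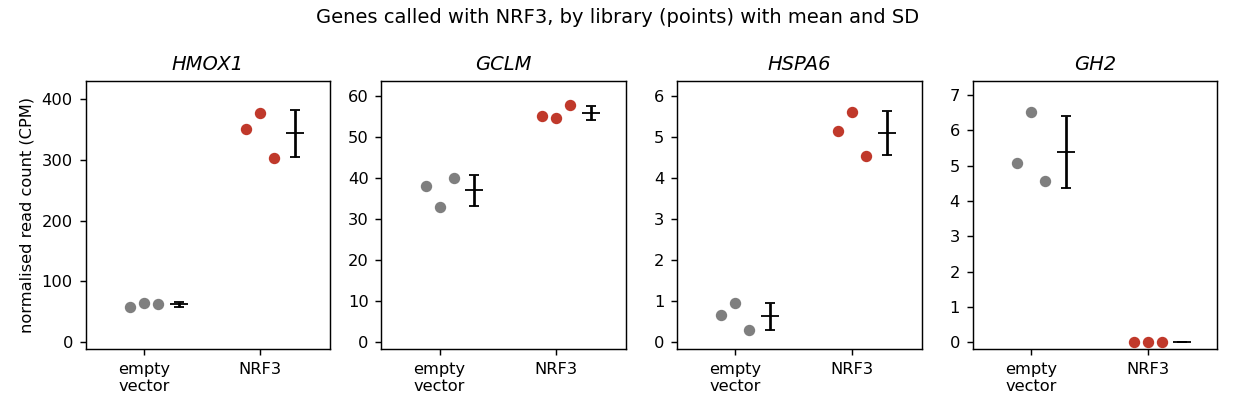
Normalised read count in CPM (vertical axes, linear) of HMOX1, GCLM, HSPA6 and GH2 in each empty vector library (grey points) and each NRF3 library (red points), with the mean and SD of 3 libraries beside them. For each gene the groups do not overlap, and GH2 is at 0 in the 3 NRF3 libraries.

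GH2 had 69, 89 and 62 counts with empty vector, and each NRF3 library had 0. Taking 3 counts over the NRF3 libraries as the upper limit that a count of 0 allows, GH2 was at least 73.4-fold lower (adjusted p = 1.73e-05, where the fitted fold itself has no meaning at 0). The NRF1 libraries also had 0 counts each, and the NRF2 libraries had 0, 1 and 0. Its close relatives GH1, CSH1 and CSH2 had 0 counts in each of these 6 empty vector and NRF3 libraries. Whether reads from the vector backbone were counted under GH2 was not tested.

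The genes next in rank did not pass the test, and are given by their values. UNKL, a RING finger protein gene, stood at 26.7, 27.0 and 28.01 CPM with empty vector and 35.4, 40.9 and 34.6 CPM with NRF3, a log2 fold change of 0.44 (interval 0.26 to 0.62, adjusted p = 0.242). It was called by DESeq2 (adjusted p = 0.0191) and after each library was corrected for transcript length and GC content (0.00140). Over the same controls UNKL was also called higher by edgeR with NRF1 (log2 fold change 0.53) and with NRF2 (1.37). DNAJB1, the HSP40 cochaperone of HSP70, stood at 134, 136 and 129 CPM against 159, 158 and 171 CPM, a log2 fold change of 0.29 (interval 0.17 to 0.42, adjusted p = 0.347, DESeq2 0.00428). MYC, a growth regulator, had 154, 158 and 164 CPM against 192, 192 and 176 CPM, with a log2 fold change of 0.23 (interval 0.10 to 0.37). For each of these 3 genes the groups did not overlap, which the rule that picked the next genes in rank required. UCHL1, a ubiquitin hydrolase gene, had 195, 192 and 188 CPM against 249, 197 and 265 CPM, and passed the test when NRF3 library 2 was left out (log2 fold change 0.42, adjusted p = 0.00961).

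On the lower side DDB2, a DNA damage recognition gene, had 35.3, 34.9 and 33.9 CPM with empty vector and 24.6, 26.5 and 26.0 CPM with NRF3, a log2 fold change of -0.43 (interval -0.61 to -0.25, adjusted p = 0.251, DESeq2 0.0224). H1F0, a linker histone gene, had 128, 132 and 139 CPM against 103, 108 and 98.5 CPM, a log2 fold change of -0.37 (interval -0.53 to -0.20, adjusted p = 0.416, DESeq2 0.0295). PVT1, a long noncoding RNA, had 11.2, 11.4 and 11.1 CPM against 6.58, 6.91 and 8.47 CPM, a log2 fold change of -0.62 (interval -0.90 to -0.33, adjusted p = 0.448). All 3 were lower in every NRF3 library than in every empty vector library, which the same rule required, so it adds no support. DDB2, H1F0 and PVT1 were called by limma with library weights, at adjusted p of 0.0184, 0.0306 and 0.0326. Over the same controls all 3 were also called lower by edgeR with NRF1 and with NRF2. Those log2 fold changes were -0.55 and -0.49 for DDB2, -0.62 and -1.05 for H1F0, and -0.69 and -0.92 for PVT1.

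**Figure D2:**
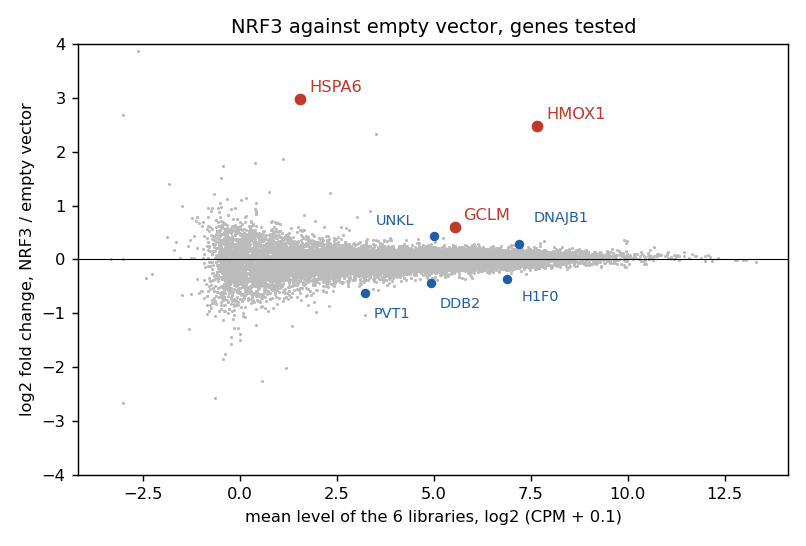
Log2 fold change of NRF3 over empty vector (vertical axis) against the mean level of the 6 libraries as log2 (CPM + 0.1) for the genes tested (grey). HSPA6, HMOX1 and GCLM, the 3 called higher, are in red and 5 uncalled genes named in the text in blue. GH2 and 2 further genes lie outside the axis limit of 4, and the grey points close in on 0 as the level grows.

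The intervals show what sizes of change the libraries left room for. For 13927 of the 15135 genes tested (92.0%) the 95% interval of the log2 fold change lay within -1 to 1, which leaves no 2-fold change inside it. The median distance from the estimate to either bound was 0.253. The genes whose interval reached further had a median mean count of 11.5, against 342 for the others, so the intervals that still held a 2-fold change belonged mostly to weakly expressed genes. The interval lay wholly above 1 for 2 genes and wholly below -1 for 1.

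NFE2L3 itself differed little. Its level was 35.5, 32.3 and 35.8 CPM with empty vector and 36.8, 39.3 and 38.4 CPM with NRF3, a log2 fold change of 0.15 (interval -0.02 to 0.31, unadjusted p = 0.0826). The NRF3 libraries were just above the empty vector libraries. The transgene is codon-optimized, and whether its reads were counted under NFE2L3 was not tested, so this level does not check the labels. None of the 8 tested genes of CNC factors and partners was called by edgeR, and none had an unadjusted p under 0.05. The log2 fold change was 0.10 for NFE2L2 and -0.11 for NFE2L1, the genes of NRF2 and NRF1. It was 0.03 for KEAP1, the repressor of NRF2, and -0.06 for BACH1, the repressor of HMOX1. The small MAF partners MAFG and MAFK stood at -0.07 and 0.07, while MAFF, with 4 to 7 counts a library, was not tested.

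Among genes of the antioxidant response, HMOX1 and GCLM stood alone in passing the test. This list held the classical ARE genes, and 31 of its 33 members were tested. Of these, 2 were called higher and none lower, where 0.0198% of all genes tested were called higher, and the median log2 fold change was 0.06. GCLC, the catalytic partner of GCLM, had 46.2, 44.4 and 46.7 CPM with empty vector and 48.8, 51.1 and 50.7 CPM with NRF3, a log2 fold change of 0.13 (interval -0.01 to 0.28). Its groups did not overlap, though the interval reached 0. NQO1, a quinone reductase gene, had 7.20, 8.35 and 6.56 CPM against 7.79, 6.76 and 9.98 CPM, a log2 fold change of 0.15 (interval -0.16 to 0.46). TXNRD1, thioredoxin reductase, had 121, 116 and 119 CPM against 112, 120 and 121 CPM, a log2 fold change of -0.01 (interval -0.15 to 0.12). The groups overlapped for both. SRXN1, which repairs peroxiredoxins, and SLC7A11, the cystine transporter, stood at 0.05 and 0.07 on the log2 fold scale.

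The same list stood elsewhere with NRF2. By the direct test, 27 of the 31 were lower with NRF3 than with NRF2, where 2.42% of all genes tested were lower, and 1 was lower than with NRF1, where 0.0463% were. NQO1 was lower with NRF3 than with NRF2 by a log2 difference of -2.57 ± 0.13 (SE, adjusted p = 7.81e-10). TXNRD1 differed by -2.27 ± 0.06 (SE, adjusted p = 4.86e-13) and SRXN1 by -3.08 ± 0.11 (SE, adjusted p = 6.37e-12). GCLC, which moved less with NRF2, differed by -0.65 ± 0.07 (SE, adjusted p = 8.43e-06). OSGIN1, an oxidative stress growth inhibitor gene, had 0.514, 0.806 and 0.663 CPM with empty vector and 0.454, 0.218 and 0.378 CPM with NRF3, and was lower with NRF3 than with NRF2 by -7.42 ± 0.18 (SE, adjusted p = 6.31e-14). The median log2 fold change of the list over empty vector was 1.42 with NRF2 and 0.06 with NRF3, and both share the same control libraries.

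**Figure D3:**
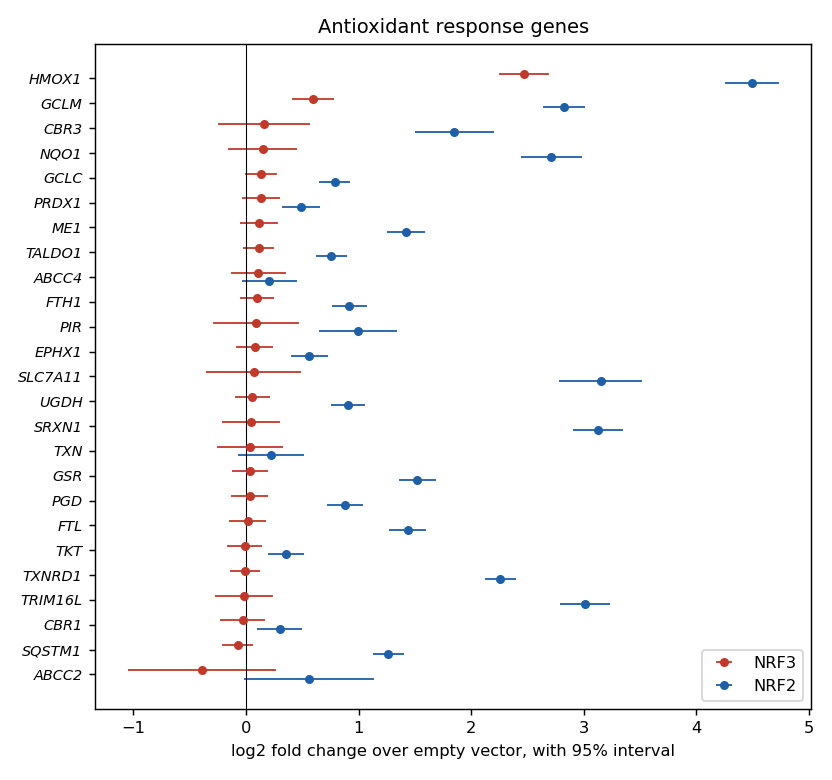
Log2 fold change over the same empty vector libraries, with 95% interval, for NRF3 (red) and NRF2 (blue) in 25 antioxidant response genes with a mean of at least 1 CPM with empty vector. With NRF3, HMOX1 (2.47) and GCLM (0.59) lie clear of 0, and the intervals of the other genes reach or cross it.

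Genes around heme and glutathione showed the same pair and little else. In heme and iron handling 1 of 21 tested genes was called, again HMOX1, where 0.0198% of all genes were called higher, with a list median of 0.04. ALAS1, the first enzyme of heme synthesis, had 97.3 ± 2.60 CPM with empty vector (SD, n = 3) and 108 ± 6.61 CPM with NRF3, and its groups overlapped. ALAD, the next enzyme of that path, had 9.63, 9.37 and 9.88 CPM against 7.56, 8.51 and 6.28 CPM, a log2 fold change of -0.37 (interval -0.63 to -0.11, adjusted p = 0.994). In glutathione metabolism 1 of 27 was called, GCLM, against the same 0.0198%, with a list median of 0.07. CHAC1, which degrades glutathione and is a target of ATF4, had 2.18 ± 0.584 CPM (SD, n = 3) against 3.32 ± 0.615 CPM, a log2 fold change of 0.61 (interval 0.17 to 1.05, adjusted p = 0.994).

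The chaperone genes leaned upward by small amounts. Of 32 tested genes of the heat shock response, 1 was called higher (HSPA6), 6 had an unadjusted p under 0.05 on the higher side against 1.71% of all genes, and 31 had a log2 fold change above 0. The list median was 0.11, and stood at 0.10, 0.09 and 0.12 in the 3 NRF3 libraries against -0.05 to 0.02 in the empty vector libraries. Over the same controls the list median was 0.17 with NRF1 and 0.12 with NRF2. HSPA1A, a major inducible HSP70 gene, had 823, 900 and 816 CPM with empty vector and 1151, 1285 and 808 CPM with NRF3. HSPA1B, which encodes the same protein, had 884, 939 and 862 CPM against 1230, 1349 and 844 CPM. For both, NRF3 libraries 1 and 2 were high and NRF3 library 3 lay below every empty vector library. The log2 fold change was 0.35 for either gene (adjusted p = 0.994), and both passed the test without NRF3 library 3, at 0.53 (adjusted p = 0.0271 for HSPA1A and 0.00955 for HSPA1B). The pair is nearly identical in sequence, so the split of reads between them is uncertain. HSPA6 did not share this pattern, with 4.54 CPM in NRF3 library 3. BAG3, an HSP70 cochaperone, had a log2 fold change of 0.11 (interval -0.09 to 0.32), and HSPH1, an HSP110 chaperone, 0.10 (interval -0.04 to 0.24).

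Chaperones and sensors of the ER showed a similar lean without a call. None of 39 tested genes was called by edgeR, 11 had an unadjusted p under 0.05 on the higher side (1.71% of all genes) and none on the lower (2.41%). A log2 fold change above 0 was found for 37 of them and for 7688 of the 15135 genes tested, and the list median was 0.11. Over the same controls that median was 0.12 with NRF1 and 0.30 with NRF2. The NRF3 libraries lay wholly above empty vector for 14 of the 39, against 3.95% of all genes. HSPA5, the ER-resident HSP70 BiP, had 686, 730 and 749 CPM with empty vector and 774, 895 and 811 CPM with NRF3, a log2 fold change of 0.20 (interval 0.05 to 0.35). HERPUD1, which acts in ER-associated degradation, had 56.7, 60.8 and 61.9 CPM against 69.8, 63.5 and 84.1 CPM, a log2 fold change of 0.28 (interval 0.09 to 0.46). XBP1, a transcription factor of the unfolded protein response, had 166, 173 and 164 CPM against 187, 191 and 195 CPM, a log2 fold change of 0.19 (interval 0.06 to 0.32). The groups did not overlap for these 3 genes. The intervals of all 39 lay within -1 to 1, and the largest log2 fold change was 0.30. By the direct test 7 were lower with NRF3 than with NRF2, against 2.42% of all genes, and none differed from NRF1, though at an adjusted p over 0.05 that does not show equal levels. In the ATF4 and amino acid response, 0 of 28 were called by edgeR. At an unadjusted p under 0.05 there were 3 on the higher side (1.71% of all genes) and 1 on the lower (2.41%), and 2 lay wholly above (3.95% of all genes) and 3 wholly below empty vector (4.64%).

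The proteasome, a textbook target of NRF1 and a proposed target of NRF3, was close to its control level as a group. None of 48 tested subunit and assembly genes was called by edgeR and none had an unadjusted p under 0.05. The intervals of 47 lay within -1 to 1, 44 of the 48 had a log2 fold change above 0, and the median was 0.06. The libraries were far apart, with list medians of 0.10, -0.12 and 0.26 in NRF3 libraries 1, 2 and 3 against -0.02 to 0.03 with empty vector. POMP, the proteasome maturation factor, had 130, 131 and 130 CPM with empty vector and 139, 109 and 166 CPM with NRF3. PSMA4, a core particle subunit, had 422, 420 and 398 CPM against 453, 360 and 575 CPM. In both, NRF3 library 2 was the lowest and NRF3 library 3 the highest of the 6. PSMD4, a ubiquitin receptor of the proteasome, had 178, 183 and 185 CPM against 202, 188 and 201 CPM, a log2 fold change of 0.12 (interval -0.03 to 0.26). Of 9 tested genes linked to NRF3 in earlier work, none was called by edgeR and none had an unadjusted p under 0.05, with log2 fold changes of 0.06 for UHMK1, a kinase that acts on RNA processing proteins, and -0.01 for GGPS1, an enzyme of isoprenoid synthesis.

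Genes listed here as activated by p53 leaned downward, while p53 activity itself was not measured. None of the 27 was called by edgeR, but 7 had an unadjusted p under 0.05 on the lower side, where 2.41% of all genes did, and none on the higher side. The NRF3 libraries lay wholly below empty vector for 9 of them, against 4.64% of all genes. The list median was -0.14, at -0.15, -0.12 and -0.15 in the 3 NRF3 libraries against -0.04 to 0.03 with empty vector. It was -0.095 without NRF3 library 3 and -0.16 without empty vector library 3. Over the same controls the list median was 0.006 with NRF1 and 0.011 with NRF2. By the direct test 5 were lower with NRF3 than with NRF2, against 2.42% of all genes, and none differed from NRF1. CDKN1A, the p21 cell cycle inhibitor, had 12.8, 11.9 and 11.6 CPM with empty vector and 10.1, 10.9 and 9.98 CPM with NRF3, a log2 fold change of -0.23 (unadjusted p = 0.0497). AEN, a nuclease of apoptosis, had 41.9, 46.7 and 42.0 CPM against 35.5, 38.5 and 33.0 CPM, a log2 fold change of -0.29 (interval -0.46 to -0.12). GDF15, a secreted stress factor, had 0.735, 1.10 and 1.18 CPM against 0.302, 0.436 and 0.0756 CPM. For these 3 and for DDB2 the groups did not overlap. MDM2, which degrades p53 and is itself its target, had 39.0, 36.3 and 34.4 CPM against 31.2, 43.0 and 40.5 CPM, and overlapped.

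HOX genes, patterning factors that this line expresses, and hosts of small nucleolar RNAs gave low medians as well. Of 36 HOX genes tested none was called by edgeR, 3 had an unadjusted p under 0.05 on the lower side (2.41% of all genes) and 9 lay wholly below empty vector (4.64% of all genes), with a median of -0.11. Over the same controls the HOX median was lower still with the other transgenes, at -0.43 with NRF1 and -0.72 with NRF2. HOXD10 had 38.3, 32.5 and 38.2 CPM with empty vector and 30.1, 29.3 and 25.9 CPM with NRF3, a log2 fold change of -0.35 (interval -0.59 to -0.12). HOXD9 had 18.4, 18.5 and 19.8 CPM against 16.6, 15.5 and 14.7 CPM, and was higher with NRF3 than with NRF1 by a log2 difference of 0.67 ± 0.11 (SE, adjusted p = 0.0186) and than with NRF2 by 1.28 ± 0.12 (SE, adjusted p = 2.7e-06). By the direct test 21 of the 36 were higher with NRF3 than with NRF2 (2.75% of all genes) and 3 higher than with NRF1 (0.35% of all genes). Of 20 small nucleolar RNA hosts none was called by edgeR, 6 had an unadjusted p under 0.05 on the lower side against 2.41% of all genes, and 8 lay wholly below empty vector against 4.64%. The median was -0.18, and it was -0.07, -0.49 and 0.01 in NRF3 libraries 1, 2 and 3, lowest in library 2. Over the same controls the median of these hosts was -0.40 with NRF1 and -0.48 with NRF2. SNHG12 had 16.5, 18.2 and 20.8 CPM with empty vector and 15.0, 8.94 and 15.5 CPM with NRF3.

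The 13 mRNAs encoded in mitochondrial DNA set NRF3 apart from the other transgenes. None was called against empty vector by edgeR, none had an unadjusted p under 0.05, and their median log2 fold change was -0.00 with NRF3, -0.78 with NRF1 and -0.82 with NRF2, all over the same controls. By the direct test 7 were higher with NRF3 than with NRF1, against 0.35% of all genes, and 12 higher than with NRF2, against 2.75%. ND1, a subunit of complex I, had 3132, 2731 and 3507 CPM with empty vector and 3698, 3262 and 3075 CPM with NRF3, and the groups overlapped. It was higher with NRF3 than with NRF1 by a log2 difference of 0.83 ± 0.15 (SE, adjusted p = 0.0378) and than with NRF2 by 0.84 ± 0.15 (SE, adjusted p = 0.00486). SMAD6, an inhibitor of BMP signals, had 78.0, 81.7 and 82.4 CPM with empty vector and 76.5, 76.0 and 64.9 CPM with NRF3, a log2 fold change of -0.15 (interval -0.32 to 0.01). It was higher with NRF3 than with NRF1 by 0.47 ± 0.08 (SE, adjusted p = 0.0206) and than with NRF2 by 0.84 ± 0.08 (SE, adjusted p = 4.75e-06). TRIB1, a pseudokinase gene, went the other way against NRF1, with a log2 difference of -0.39 ± 0.08 (SE, adjusted p = 0.0391). Over all genes tested, 60 differed between NRF3 and NRF1 (0.396%) and 782 between NRF3 and NRF2 (5.17%).

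Further lists showed no call by edgeR, and their medians lay between -0.10 and 0.05, where that of all genes tested was 0.00. The median was -0.07 for 38 immediate early genes, 0.04 for 29 genes of sterol synthesis, -0.05 for 16 interferon-stimulated genes, 0.05 for 29 genes of hypoxia and glycolysis and -0.07 for 22 genes of BMP and TGF-beta response. It was 0.00 for 36 genes of mitosis, -0.01 for 38 of DNA replication, -0.10 for 20 replication-dependent histones and 0.02 for 10 genes that control the stability and release of NRF3. At an unadjusted p under 0.05 these lists held 0 to 2 genes on the higher side (1.71% of all genes) and 0 or 1 on the lower (2.41%). The 2 were reached by the 29 genes of hypoxia and glycolysis and by the 38 immediate early genes. Of the 22 BMP and TGF-beta genes, 5 lay wholly below empty vector (4.64% of all genes) and none above (3.95%). Each of the other lists had 0 to 3 genes wholly above and 0 to 3 wholly below. Some of these medians moved with 1 library: without empty vector library 3 that of the interferon-stimulated genes was 0.03, and without NRF3 library 3 it was -0.01 for the BMP and TGF-beta genes, 0.09 for hypoxia and glycolysis and -0.05 for DNA replication. The 22 genes taken here from the study's NRF3 list were chosen by the study on these libraries together with an outside data set, and are not independent evidence of direction. Of them 2 were called higher (0.0198% of all genes), 7 lay wholly above (3.95% of all genes) and 15 wholly below empty vector (4.64%). CMAS, which activates sialic acid and is one of them, had 92.4, 94.6 and 97.2 CPM with empty vector and 106.3, 104.9 and 104.7 CPM with NRF3, a log2 fold change of 0.15 (interval 0.02 to 0.29).

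The NRF3 libraries differed from each other more than the libraries of any other condition. The biological coefficient of variation was 0.135 among the NRF3 libraries, 0.0372 among those of empty vector, 0.0608 for NRF1 and 0.0753 for NRF2. The median SD of log2 CPM was 0.187 with NRF3 and 0.0883 with empty vector. NRF3 libraries 2 and 3 were the farthest apart of the 6, with a median absolute log2 difference of 0.273 per gene, against 0.0990 to 0.107 between empty vector libraries and 0.123 to 0.228 between an empty vector and an NRF3 library. NRF3 library 2 lay above and NRF3 library 3 below all empty vector libraries for 2624 genes (17.3%), and the opposite held for 2459 (16.2%). In limma's library weights, NRF3 libraries 2 and 3 received 0.293 and 0.318, and NRF3 library 1 received 1.82.

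**Figure D4:**
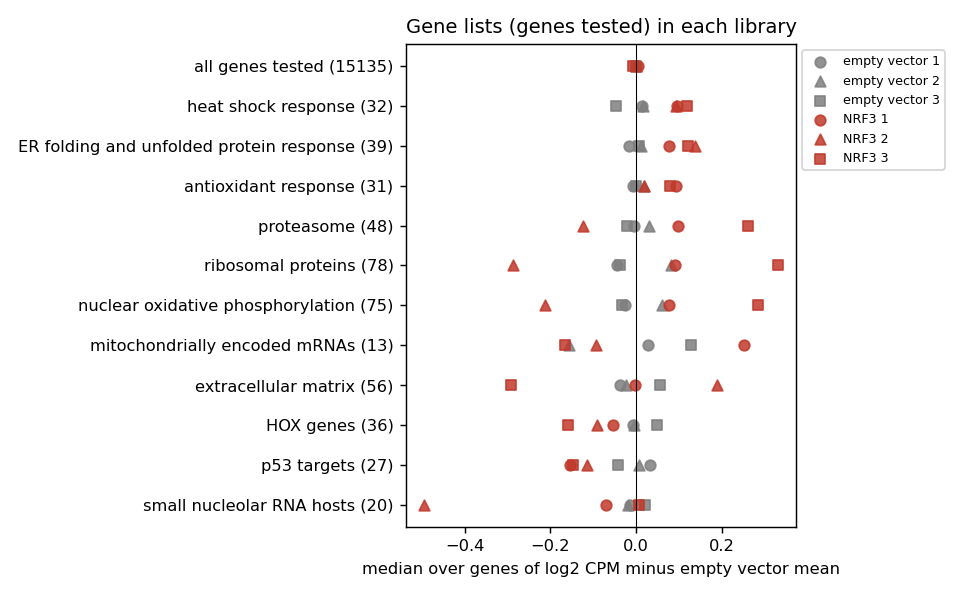
Median over the tested genes of a list (number in brackets) of log2 CPM minus the mean of the empty vector libraries, for each empty vector library (grey) and NRF3 library (red). The proteasome, ribosomal protein and extracellular matrix lists place NRF3 libraries 2 and 3 on opposite sides of 0, while the heat shock, ER and p53 lists place the 3 NRF3 libraries together.

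Long and short transcripts, and whole classes of genes, parted in these 2 libraries. The 78 ribosomal protein genes had list medians of 0.09, -0.29 and 0.33 in NRF3 libraries 1, 2 and 3, and the 75 nuclear genes of oxidative phosphorylation 0.08, -0.21 and 0.28. The 56 extracellular matrix genes had 0.00, 0.19 and -0.29. RPL11, a protein of the large ribosomal subunit, had 1587, 1334 and 1941 CPM in the NRF3 libraries and 1341 to 1551 CPM with empty vector. Genes were also split into quintiles by the length of their longest transcript, available for 13406 of the tested genes (88.6%). In the shortest quintile (median 1548 bases) the median log2 difference from empty vector was 0.0806, -0.111 and 0.134 in NRF3 libraries 1, 2 and 3, and in the longest (median 7696.5 bases) it was -0.107, 0.125 and -0.153. Across the quintiles the empty vector libraries stayed between -0.0191 and 0.0327. A slope like that of NRF3 library 2 was also seen in NRF2 library 1, with -0.115 in the shortest quintile and 0.130 in the longest. The other NRF1 and NRF2 libraries stayed between -0.0596 and 0.0212. After correcting each library for length and GC content, the median SD of log2 CPM with NRF3 was 0.137 in place of 0.181 for these genes, and with empty vector 0.0755 in place of 0.0823. The calls were then HMOX1, HSPA6, GCLM and UNKL higher and GH2 lower.

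**Figure D5:**
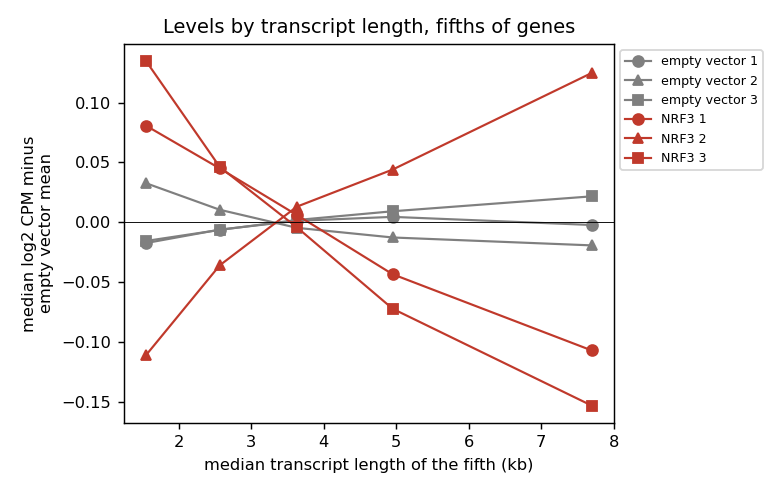
Median log2 CPM minus the empty vector mean (vertical axis) in quintiles of genes by transcript length, placed at the median length of each quintile in kb (horizontal axis), for 3 empty vector libraries (grey) and 3 NRF3 libraries (red). NRF3 libraries 1 and 3 slope downward (0.0806 to -0.107 and 0.134 to -0.153), NRF3 library 2 slopes upward (-0.111 to 0.125), and the empty vector libraries stay near 0.

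Single genes with the largest spread among the NRF3 libraries included an overlapping read-through pair. NBL1, a secreted BMP antagonist, had 149, 0 and 145 counts in NRF3 libraries 1, 2 and 3, while the read-through gene MINOS1-NBL1 had 39, 206 and 36. NRF3 library 2 was thus low in one gene of this pair and high in the other. Such spread was not confined to NRF3. The SD of log2 CPM of NBL1 was 3.62 with NRF3, 3.74 with NRF1 and 0.0705 with NRF2. The table assigns overlapping reads by a rule not given in the sources used here, so values of single members of such pairs are uncertain.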

How the data were processed

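The 12 libraries of HEK293T cells were sequenced at BGI. The authors processed the reads in the DNASTAR Lasergene Genomics Suite on GRCh37.p13 (build per the labels), and deposited estimated counts per gene with no normalization between libraries. Its version, filters and counting rule: not given in the sources used here. A value of 0.009 stands for no count (45.8% of values), 5.96% of values of at least 0.5 were not whole, and all were rounded to whole counts. In 26 rows the gene name had become a number and was kept so. Control columns headed as vehicle were taken as the empty vector libraries by number.

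R 4.3.3 with edgeR 4.0.16 was used for the main test: filterByExpr (minimum count 10) selected the genes, TMM (trimmed mean of M values) scaled the libraries, and 1 robust quasi-likelihood fit of 4 conditions covered 12 libraries, with two-sided tests BH-adjusted over 15135 genes. Levels per library are CPM after this scaling. The sensitivity to the tool was checked with DESeq2 1.42.0 and limma 3.58.1 (voom with library weights), and plots used Python 3.11.15 with matplotlib 3.10.9. Scripts were tested on simulated counts. Total counts were 13452539 to 14014340, and no 2 of the 6 empty vector and NRF3 libraries agreed within sampling noise. Other alternatives were 3 scalings, 2 filters on low counts, other thresholds, a fit of 6 libraries, a block for the replicate number, leaving out NFE2L1, NFE2L2 and NFE2L3, rounding down, the unequal variance test named in the study's methods, and each library left out. The correction for transcript length and GC content, by loess on the longest GENCODE v29 transcript (a later annotation), and the fit of only the genes with such a transcript were chosen after seeing the data.

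The comparison and the gene lists were chosen with earlier results of these data known. Lists were described by counts and medians, with no test. Genes were named by rule: those called, the 12 uncalled genes per direction with the smallest p (mean count of at least 50, no overlap), the 3 members of each list with the smallest p, the genes listed by the study for NRF3, a set of CNC, antioxidant, chaperone, proteasome and growth hormone genes, and the 10 most variable genes with NRF3. HSPA5, AEN, MDM2 and KTI12 fall outside this rule and were chosen after their values were seen. The promoter search covered 250 bases before each RefSeq start and was run on 9 genes, those named in the text. The results of a few further genes are not reported here.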

Additional observations from a re-analysis of the deposited data

How the results depend on the processing

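The 15 alternatives counted here leave out the unequal variance test, which called no gene after adjustment, and the other thresholds. HMOX1, HSPA6 and GH2 were called in each of the 15, and without each of the 6 libraries. Across those 6, the log2 fold change ran from 2.40 to 2.56 for HMOX1 and from 2.65 to 3.39 for HSPA6. GCLM passed in 12 of the 15 and without 3 of the 6 libraries. In all, 2951 results for named genes kept their side of the threshold, 16 gained a call and 6 lost one. None that was called in the main fit or in the alternative changed direction. Changes of direction among uncalled results were not counted.

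The main fit counted 3 genes higher and 1 lower. The counts were 5 and 3 with DESeq2, 4 and 4 with library weights (UCHL1 higher, DDB2, H1F0 and PVT1 lower added), 4 and 2 with every gene that had a count in some library (UNKL and IL1B added), and 2 and 2 in the 6 libraries alone (GCLM lost, KTI12 added). With 1 library left out they were 2 to 5 higher and 1 to 2 lower. BOLA2 and UCHL1 were added without NRF3 library 2, HSPA1A and HSPA1B without NRF3 library 3, and CEBPB-AS1 on the lower side without NRF3 library 1. The unequal variance test gave 0 and 0 after adjustment and 194 and 238 at an unadjusted p under 0.05. The causes were not tested.

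The replicate numbers did not pair the libraries (correlations of deviations -0.0354, -0.0596 and -0.146). With the replicate number as a block the counts were 2 and 1 over 12 libraries, where GCLM had an adjusted p of 0.0630, and 2 and 2 over 6 libraries, where it had 0.282.

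The genes whose interval reached beyond a 2-fold change had a median mean count of 11.5, and the effect of sequencing depth was not tested.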

Other observations

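KTI12, which encodes a partner of the Elongator complex, was listed as present or absent by library. It had 92, 103 and 98 counts with empty vector and 0 in each NRF3 library, 99, 0 and 96 with NRF1, and 108, 0 and 0 with NRF2. In the fit of all 12 libraries it did not pass the test (edgeR, unadjusted p = 0.0426, adjusted p = 0.994), and in the fit of the 6 libraries it was called lower. No library of the 12 held a value between 0 and 92 counts. GH2 differed from this pattern, with at most 1 count in each of the 9 transgene libraries.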
